A study of Mus musculus with 2 samples.

Results

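The CCN genes encode a family of secreted matrix-associated regulators. Here the 5 members Cyr61 (now Ccn1), Ctgf (Ccn2), Nov (Ccn3), Wisp1 (Ccn4) and Wisp2 (Ccn5) were followed together with Ankrd1 and Amotl2, which, like Cyr61 and Ctgf, are widely used as readouts of the transcriptional coactivators YAP and TAZ. Every probe that carries one of these names in the array files was taken, which gave 7 probes for 7 genes, out of 41174 distinct probes and 19698 named genes on the array. The samples were cells of NIH3T3, a long-established fibroblast line from mouse embryos, grown in 10% fetal bovine serum. Both groups were transfected with pcDNA3.1 and kept as stable G418-resistant lines, 1 with the empty plasmid and 1 with pcDNA3.1-MARVELD1, which carries the gene for a MARVEL-domain membrane protein. Total RNA of each was labelled with Cy3 and read on 1 single-colour Agilent mouse whole-genome array, so there was 1 array per group. The sources used here do not say whether a line was 1 clone or a pool.

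CCN proteins are built from modules related to insulin-like growth factor binding proteins, von Willebrand factor type C, thrombospondin type 1 and, except in Wisp2, a C-terminal cystine knot. They act outside the cell by binding integrins, LRP receptors and heparan sulfate proteoglycans, and in fibroblasts Ctgf is known as a factor in matrix production and scarring. YAP and TAZ enter the nucleus when the Hippo kinases are inactive, as on stiff substrates or at low cell density, and act there through the DNA-binding TEAD factors. Cyr61, Ctgf, Ankrd1 and Amotl2 are known TEAD target genes.

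The promoters are shown because TEAD factors bind the letters GGAATG, which can be looked for in the known target genes among the members. The RefSeq promoter table, build GRCm38.p6, matched 3 of the 7 genes, Cyr61, Ankrd1 and Amotl2. Ctgf, Nov, Wisp1 and Wisp2 were not matched. The 250 bases before the annotated start are printed from 5′ to 3′ on the strand of the gene, with GGAATG or its reverse complement CATTCC in capitals.
Cyr61, chr3:145649986-145650235, minus strand: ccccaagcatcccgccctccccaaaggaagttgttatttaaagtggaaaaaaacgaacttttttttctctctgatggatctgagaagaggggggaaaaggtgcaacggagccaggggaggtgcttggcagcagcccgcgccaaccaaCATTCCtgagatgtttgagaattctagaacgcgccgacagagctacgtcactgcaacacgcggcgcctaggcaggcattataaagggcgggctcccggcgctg
Ankrd1, chr19:36119845-36120094, minus strand: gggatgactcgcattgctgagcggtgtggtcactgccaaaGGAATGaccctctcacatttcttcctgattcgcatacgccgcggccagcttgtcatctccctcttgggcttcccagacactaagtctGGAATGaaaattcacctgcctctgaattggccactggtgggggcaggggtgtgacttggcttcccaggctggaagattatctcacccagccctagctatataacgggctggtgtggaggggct
Amotl2, chr9:102717554-102717803, plus strand: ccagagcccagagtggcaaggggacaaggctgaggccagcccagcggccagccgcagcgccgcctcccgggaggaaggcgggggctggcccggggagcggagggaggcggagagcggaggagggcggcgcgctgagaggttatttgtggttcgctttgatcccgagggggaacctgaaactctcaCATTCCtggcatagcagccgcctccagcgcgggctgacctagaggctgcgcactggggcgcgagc
Cyr61 held 1 match, beginning 103 bases before the start. Ankrd1 held 2, at 210 and 123 bases, and Amotl2 held 1, at 65 bases. Of 32851 promoter windows of this length, 12.6% held such a match on either strand. The AP-1 letters TGANTCA, which read the same on both strands, occurred in 6.75% of the windows and the CArG box, the site of serum response factor, in 1.47%. Neither occurred in these 3 windows, with 0 matches each. No match of 1 motif thus overlapped a match of another. A match describes the letters only.

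Each member was read by a single 60-base probe printed once per array, so no second probe or repeated spot of the same gene was at hand. The probes are identified here by the first 30 of their bases, as the scanner files give them, since every value below rests on these oligonucleotides.
Cyr61: aagattagttgggccaagtgaaagccctgc
Ctgf: gtcaaatccctgttggtgaacaaatggcct
Nov: aatgaaagatgttccgaatgtaaacttaga
Wisp1: cattcctcatttttctcatgatctgtgtag
Wisp2: gtatttgtaaaaatacacatctcttaaatg
Ankrd1: cccctttgtgttctcacttgcataaagcta
Amotl2: gaatcagtgaacttaaagaaaagtcctcat
By the coordinates in the files, on mouse build mm9, the Cyr61 probe lay at chr3:145310187-145310246 on the minus strand, the Ctgf probe at chr10:24318281-24318340 and the Nov probe at chr15:54584204-54584263. The Wisp1 probe lay at chr15:66754637-66754696, the Wisp2 probe at chr2:163658717-163658776, the Ankrd1 probe at chr19:36186809-36186868 on the minus strand and the Amotl2 probe at chr9:102635025-102635084. No annotation of mm9 was used, so exon or untranslated region is not known. Pairs of these probes shared runs of 4 to 8 identical bases, and 0 other probes on the array shared a run of 20 or more bases with any of the 7. The GC content of the probes ran from 35.0% for Nov to 45.0% for Cyr61, Ctgf and Amotl2. A probe for a cDNA clone that the array describes as connective tissue growth factor, at chr10:24309406-24309465 on the opposite strand to Ctgf, is not a member by name and read 61.7 and 71.1 on the vector and MARVELD1 arrays.

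Spots well above background made up 68.7% of the vector array and 69% of the array labelled MARVELD1. The 75th percentiles of intensity were 768.1 and 703.3, and each array was scaled to its own. The 2 Marveld1 probes did not read higher on the array labelled MARVELD1, with 8724.7 against 6292.8 and 184.4 against 126.4 from vector to MARVELD1. The sources used here give neither the extent nor the species of the insert, and every direction rests on the label. All 11 fibroblast markers were detected on both arrays, with a summed scaled level of 960 on the vector array and 824 on the other. Past 2-fold there were 3 lower and 0 higher, while 3.53% of all detected genes were lower and 5.39% higher. The 3 were Pdgfrb at -2.10, Col3a1 at -1.56 and Fn1 at -1.12 by their brightest probes, though a dimmer probe of Col3a1 gave -0.10. The median log2 difference of the 11 markers was -0.54, beside 0.19 for all detected genes. Of the epithelial markers 4 of 6 were detected, 2 of them 2-fold or more higher and 1 lower, at 4.94 and 1.58 summed, and the defining genes Epcam and Cdh1 were not well above background on either array. Krt14, at a scaled level of 4.20 and 0.302, made up most of the first sum, and the other 3 genes summed to 0.738 and 1.28. Endothelial, macrophage, lymphoid and skeletal muscle lists, 19 detected genes of 20, had 0 members past 2-fold, with summed levels between 1.35 and 6.87 in each list and array. The part of these differences in the results was not tested. In bulk RNA, fewer cells of a type and less RNA per cell cannot be told apart.

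Wisp2 was much lower and Ankrd1 much higher on the array labelled MARVELD1, Cyr61, Ctgf and Wisp1 were higher by less than 2-fold, Nov was near background, and Amotl2 was alike on both arrays. In all, 1 of the 7 genes passed 2-fold upwards and 1 passed it downwards. The same limit was passed upwards by 5.39% and downwards by 3.53% of the 16532 detected genes, where a gene near background on 1 array counts only if its bound passes. Genes higher were thus 60.4% of those past the limit, but 47.5% with median scaling, 48.3% with quantiles, 44.4% with loess, 41.7% with normexp and 43.7% in the authors' deposited table, so that in these 5 settings more genes were lower than higher. These 5 are not independent, since the deposited table, like median scaling, divides each array by 1 factor, and the normexp setting also uses quantiles. The median log2 difference of the 7 genes was 0.74, with Nov at its bound, beside 0.19 for all detected genes. With 1 array per group there is no spread between replicates and no test. Errors after ± are those the scanner program gives for a spot, set by it at about 10% of a bright signal, and cover that spot alone.

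**Figure D1:**
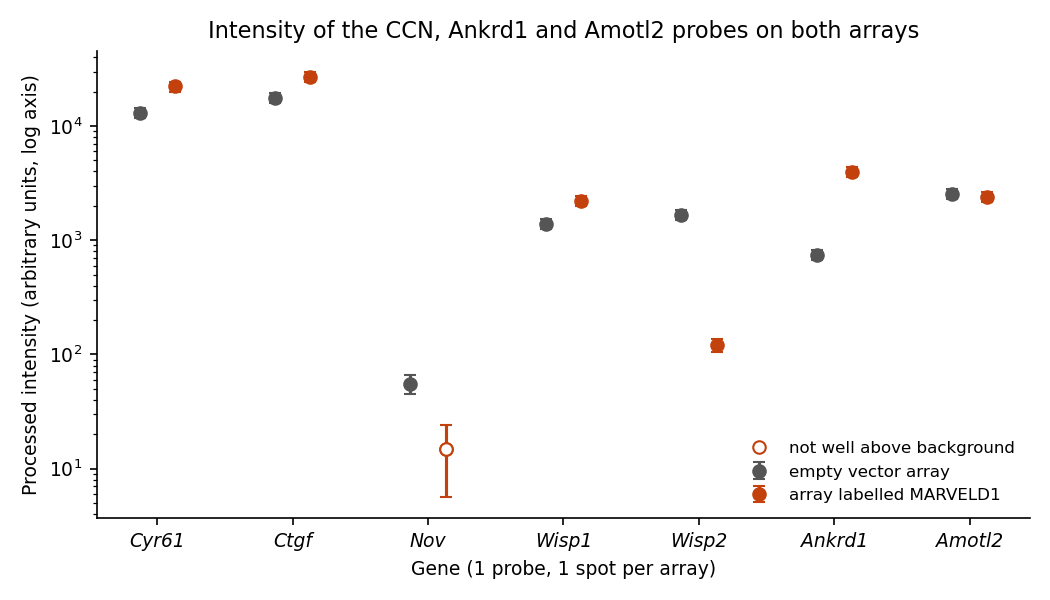
Processed intensity of the 7 probes (log axis, arbitrary units) on the empty vector array and the array labelled MARVELD1, with bars for the scanner program's spot error. Wisp2 drops from 1660 to 119.9 and Ankrd1 stands at 744.4 and 3995, while both Amotl2 points overlap within their bars.

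Among the ligands, Cyr61, an adhesive CCN protein induced early by serum and growth factors, read 13044 ± 1304 on the vector array and 22237 ± 2224 on the array labelled MARVELD1. The error bars of the spots did not overlap. After scaling, Cyr61 was 1.86-fold higher, a log2 difference of 0.90, or 0.71 above the median of all genes. Ctgf, the CCN protein most closely tied to fibrosis, read 17645 ± 1765 and 27033 ± 2703 on these arrays. It was 1.67-fold higher, a log2 difference of 0.74, or 0.55 above the median of all genes. Wisp1, a Wnt-inducible CCN gene, read 1399 ± 140.2 and 2210 ± 221.2, again with the MARVELD1 spot the higher. Its log2 difference was 0.79, or 1.73-fold.

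These 3 differences lay within 0.15 of each other on the log2 scale and none reached 2-fold. At least as large a difference in the same direction was found in 7.24% of detected genes for Cyr61, 11.9% for Ctgf and 10.4% for Wisp1. Among the 6435 genes reading 1000 or more on both arrays, as these 3 did, the shares were 4.86%, 10.7% and 8.69%. For 72 probes of that brightness printed 10 times, the technical SD of a single-spot difference was 0.17. That SD covers repeated spots alone. Over the 6435 genes of that brightness the differences had a median of 0.26 and an SD of 0.47, and all 3 lay above that median. Different probes of the same gene had differences with an SD of 0.53 over 5486 genes of any brightness. Between the 15583 genes of any brightness measured on both arrays, the SD was 0.59. Here only 1 probe per gene was read.

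Wisp2, the CCN protein without the cystine knot, stood at the other end. It read 1660 ± 166.3 on the vector array and 119.9 ± 15.7 on the array labelled MARVELD1, well above background on both. The log2 difference was -3.66, which is 12.7-fold lower. A difference this large in that direction was reached by 22 of the 16532 genes, Wisp2 included, or 0.133%. By distance over the 2 scaled log2 values, the genes nearest to Wisp2 were Arf5, a small GTPase, Tnpo2, a nuclear import receptor, and Nos1, the neuronal nitric oxide synthase, at 0.37, 0.47 and 0.51. With 2 arrays this says only that both of their levels were near those of Wisp2.

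Nov, the CCN gene named for its overexpression in nephroblastoma, read 55.7 ± 10.5 on the vector array, near the lowest well-measured intensity there, 36.5. On the array labelled MARVELD1 it read 14.9 ± 9.2 and was not well above background. Only a bound can be given, set against the lowest well-measured intensity of that array, 36. With the vector reading taken as exact, Nov was at least 1.42-fold lower, a log2 bound of -0.50. The bound was -0.22 with normexp. For repeated probes well above background and under 100 on both arrays, the technical SD of a single-spot difference was 0.66. The measured values alone gave -1.78, with an error of 0.93 from both spot errors.

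The 5 CCN genes thus covered a range of log2 differences from -3.66 to 0.90. On the array labelled MARVELD1 3 read higher and 2 lower, Nov only by a reading near background. Nov and Wisp1 lie on the same chromosome, 15, and read on opposite sides of 0, with the same limit for Nov.

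Of the other genes used as YAP readouts, Ankrd1 encodes an ankyrin repeat protein of the nucleus and the sarcomere, induced by stretch and wounding. It read 744.4 ± 75 on the vector array and 3995 ± 399.6 on the array labelled MARVELD1. The log2 difference of 2.55 is 5.86-fold higher. Of the detected genes, 42 with Ankrd1 included, or 0.254%, were as far or further in that direction. Amotl2, a junction-associated scaffold that binds YAP and is itself a YAP target, read 2559 ± 256.0 and 2415 ± 241.7. Its log2 difference was 0.04 and became -0.12 to -0.06 when arrays were scaled to the median, by quantiles, by loess, after normexp or as in the authors' deposited table. Relative to the median of all genes it was -0.14.

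**Figure D2:**
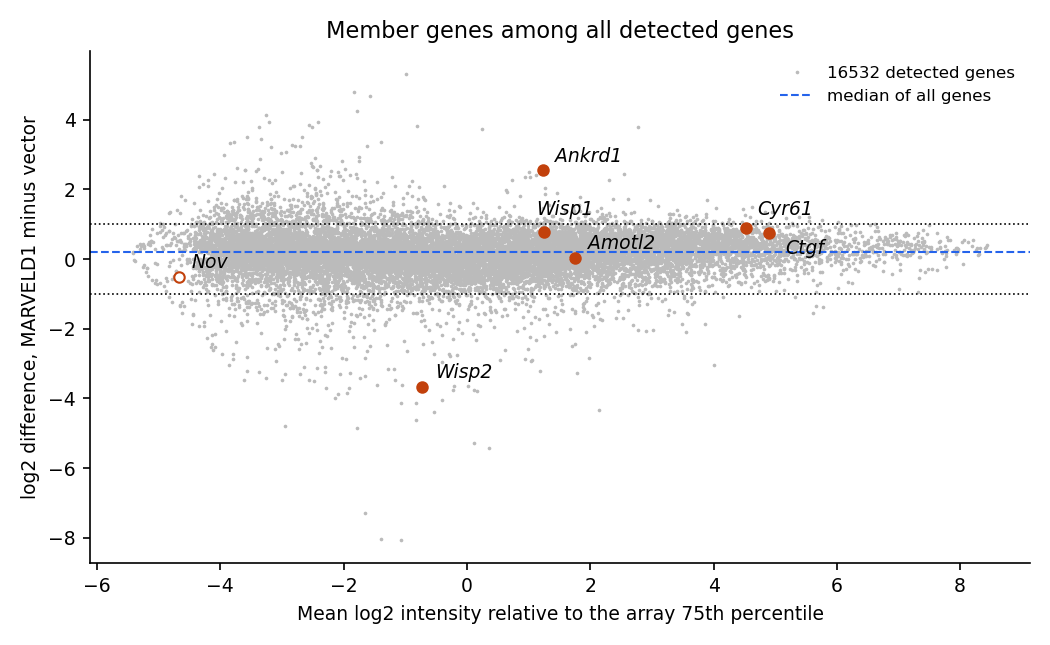
log2 difference (MARVELD1 minus vector) against mean scaled log2 intensity for 16532 detected genes (grey) and the 7 members (orange, open where only a bound is known), with dotted lines at 2-fold and a dashed line at the median of all genes, 0.19. Ankrd1 at 2.55 and Wisp2 at -3.66 lie outside most genes of like intensity, and Cyr61, Ctgf and Wisp1 lie between the median and the upper line.

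The 3 genes whose promoters are printed above held TEAD letters in every case, yet differed by 0.90, 2.55 and 0.04. Among all detected genes with a promoter in the table, the share at least 2-fold higher was 5.10% of 1707 with the TEAD letters and 5.11% of 11443 without them. The shares 2-fold or more lower were 3.87% and 3.27%. The median log2 difference was 0.17 with the letters and 0.19 without.

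None of the detected receptors that CCN proteins bind passed 2-fold with this scaling, beside 5.39% of detected genes upwards and 3.53% downwards. Of 16 listed, 15 were detected, with 0 past 2-fold in either direction and a median of -0.13 beside 0.19 for all genes. The log2 difference was below 0 in 10 of them, Sdc4 at -0.06 and Lrp1 at -0.00 among these, and in 34.4% of all detected genes. This count takes 1 probe per gene. Other well-measured probes of Sdc4, Lrp1 and Itgav gave 0.48, 0.27 and 0.11. For Itga6, at 0.20 by its brightest probe, the others gave -0.59 and -0.24. Itgb5, the beta-5 integrin subunit, read 33975 on the vector array and 16605 on the array labelled MARVELD1, a log2 difference of -0.91. It passed 2-fold lower with 5 other ways of processing, at -1.01 with median scaling, -1.17 with quantiles, -1.22 with loess, -1.03 with normexp and -1.02 in the authors' deposited table. As said above, these 5 overlap and are not separate checks. Itgb1, the common beta-1 subunit, was at -0.73 by its brightest probe and -1.80 by another. Itgb3, the beta-3 subunit that pairs with alpha-v, was at 0.46, and its other probe gave 1.14. Itgam, a leukocyte integrin subunit, was the highest with a bound of 0.50, reading 42.1 and 54.5.

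The Hippo pathway core was near the median of all genes. Of 31 listed genes 30 were detected, with a median of 0.32. Of these, 2 were 2-fold or more lower and 0 higher, beside 3.53% and 5.39% of all detected genes. Both lower genes encode TAO kinases, which act upstream of the Hippo kinases. Taok1 read 873.2 and 237.6, a log2 difference of -1.75, but its other probes gave 0.16 and -0.11. Taok3 read 1104 and 409.2, at -1.30, while its dimmer probes gave bounds of -0.57 and 0.97. When the probes of a gene were averaged, 0 of the core genes were 2-fold lower. With loess 3 were, as Vgll3, at -0.79 with the main scaling, then stood at -1.01. The count of 0 higher is by brightest probes. For Mob1b, at 0.28 by that probe, dimmer well-measured probes gave 1.10 and -0.14. The highest were Amot, a scaffold related to Amotl2, at 0.79, and Stk4, the Hippo kinase MST1, at 0.78, though a dimmer probe of Stk4 gave 0.06.

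The coactivators and their DNA-binding partners, singled out after their values were seen, differed little. Yap1 was at 0.29 and Wwtr1, which encodes TAZ, at -0.28, with its other probe at -0.52. Tead1, Tead2 and Tead4 were at 0.34, 0.35 and 0.39 and Tead3 at -0.17. A second well-measured probe of Tead2, reading 2832 on the vector array and 1491 on the other, gave -0.80, opposite to the first. A second probe of Tead1, reading 62.4 and 49.8, gave -0.20. The kinases Lats1 and Lats2, which phosphorylate YAP, were at 0.55 and 0.21.

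Other genes known to respond to YAP and TAZ all differed by less than Ankrd1, a size that 0.254% of detected genes reached upwards. Of 32 listed, 29 were detected, with 0 past 2-fold in either direction, beside 5.39% of all detected genes higher and 3.53% lower. At shares this small, 0 among 29 genes does not set the list apart from all genes. By their brightest probes they had a median of 0.20 and a range from -0.67 to 0.90. Their other probes well above background on both arrays ran from -0.87 to 0.92. This list shares 5 genes with the Hippo core. Dock5, a Rac exchange factor, was the highest at 0.90, with further probes at 0.46, 0.35 and 0.13. Ajuba, a LIM protein that inhibits the LATS kinases, and Amotl1 followed at 0.66 each, but a second, dimmer probe of Amotl1 gave -0.31. Edn1, the endothelin precursor, and Thbs1, the matrix protein thrombospondin-1, were the lowest at -0.67 and -0.65.

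**Figure D3:**
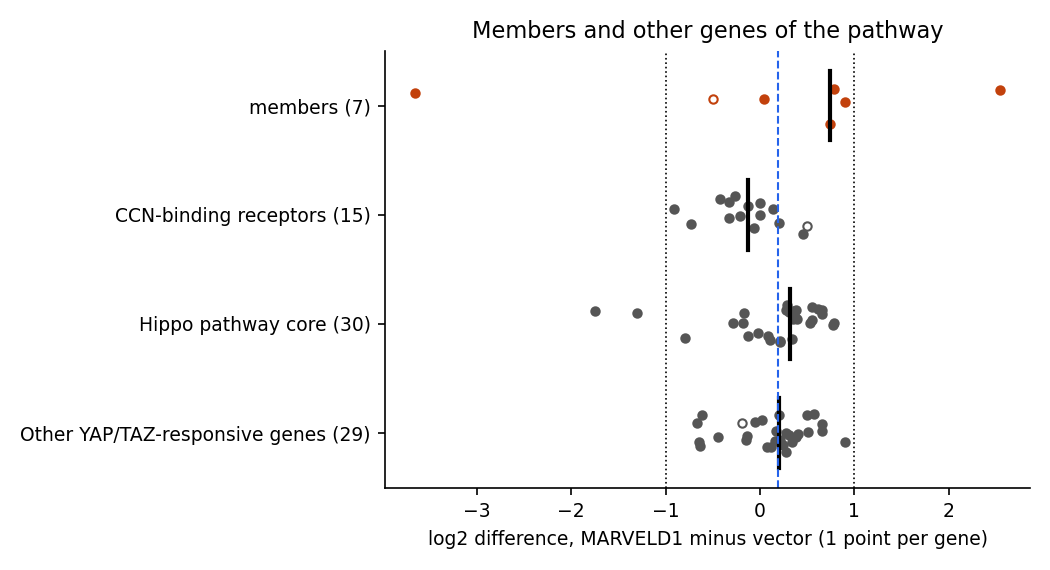
log2 difference (MARVELD1 minus vector) of the members and of 3 pathway lists, 1 point per detected gene by its brightest probe, open where only a bound is known; black bars are list medians, dotted lines 2-fold and the dashed line the median of all genes. The members run from -3.66 to 2.55, while the 29 other YAP/TAZ-responsive genes lie between -0.67 and 0.90.

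The detected genes lying next to the members on their chromosomes, 2 on each side by the order of the RefSeq table, were read as a local comparison. Of these 28 neighbours, 3 passed 2-fold upwards and 2 downwards, beside 5.39% and 3.53% of all detected genes. Their median was 0.24. The 4 neighbours of Wisp2 were between 0.00 and 0.32 and the 4 of Ankrd1 between 0.20 and 0.66, so the large differences of these members were not seen in the genes beside them. Beside Ctgf, Moxd1, a copper monooxygenase-like gene, was at 2.36 and Enpp1, an ectonucleotide pyrophosphatase, at -1.36. Beside Nov, Enpp2, which encodes autotaxin, was at -3.46 and Colec10, a collectin, at 1.23. Beside Cyr61, the collagen gene Col24a1 was at 1.26.

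**Figure D4:**
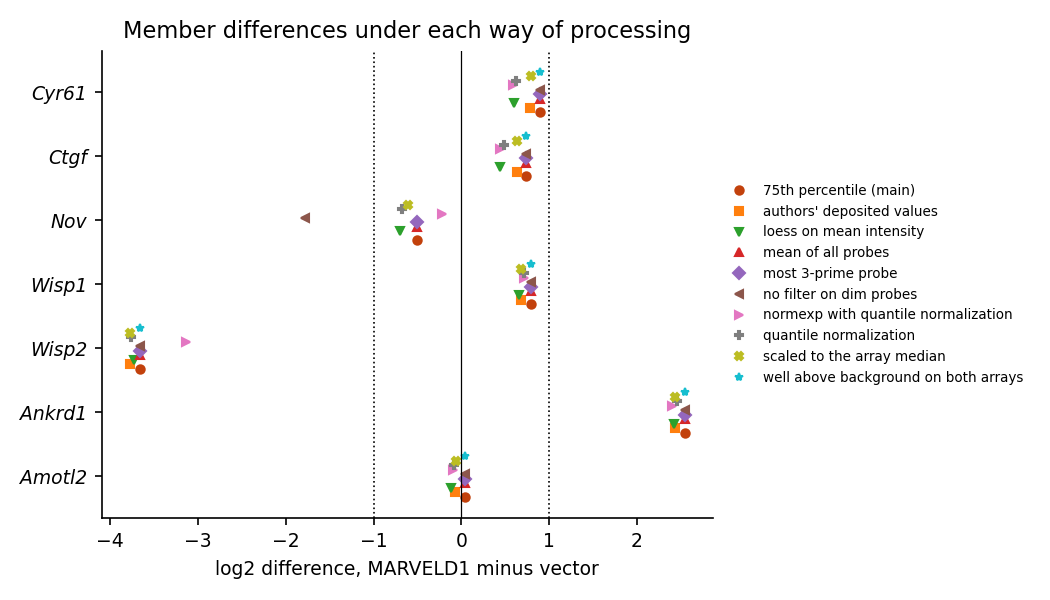
log2 difference (MARVELD1 minus vector) of each member under each way of processing, 1 symbol per setting, with dotted lines at 2-fold. Ankrd1 stays between 2.40 and 2.55 and Wisp2 between -3.78 and -3.14, while the Amotl2 symbols fall on both sides of 0.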

How the data were processed

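Per the file headers, the deposited scanner files hold spot intensity from Agilent Feature Extraction 9.5.3.1, background-subtracted and detrended within the array, with probes placed on mm9. In the authors' deposited table of normalized intensity, 99.7% (vector) and 99.8% (MARVELD1) of probes lay within 1% of that signal divided by 1 factor per array, 124.6 and 123.3. The outlier spots, 116 (vector) and 223 (MARVELD1), were not used, and 0 spots were saturated. Here log2 of the processed intensity minus the array's 75th percentile was taken, and spots of 1 probe were averaged. All 7 member probes were matched by accession to a RefSeq table (GRCm38.p6), and a gene was taken by its brightest probe among those well above background on 1 array or both. Pathway lists and the rule for named genes (all members, the 2 highest and 2 lowest of each pathway list, genes past 2-fold in every well-measured probe, and the 3 genes nearest to the member that differs most) were set, and members chosen, with earlier results of these data known. Both arrays lay on 1 slide. One result for a listed receptor, under an alternative, is not reported here. The functions were tested on simulated data. R 4.3.3 with limma 3.58.1 and Python 3.11.15 were used.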

Additional observations from a re-analysis of the deposited data

How the results depend on the processing

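Of 61 member values under 9 alternatives, 59 moved by less than 0.39, the SD of a difference between single spots over 175 repeated probes. Many of the 59 could not move. Each member has 1 probe, so the mean of all probes and the most 3-prime probe repeat the main value. The 2 changes of filter could alter only Nov. The count of 59 therefore overstates how far the values were put to a check. The other two were Wisp2 at -3.14 with normexp background correction, and Nov at -1.78 without the filter on dim probes, where 2 members instead of 1 were at least 2-fold lower. Nov has no value with the authors' deposited values or with the filter on both arrays. The 0.39 pools probes of all brightness, and the SD was 0.17 for those reading 1000 or more on both arrays. Cyr61 moved further than 0.17, from 0.90 to 0.60 with loess, 0.62 with quantiles and 0.59 with normexp. So did Ctgf, from 0.74 to 0.44, 0.49 and 0.44 in the same settings. Scaling moved the median of all genes from 0.19 to 0.04 (loess). Relative to it, Cyr61 ranged from 0.54 to 0.75, Ctgf from 0.39 to 0.59, Wisp1 from 0.59 to 0.66 and Ankrd1 from 2.35 to 2.40. With a 1.5-fold limit, 4 members were higher, against 19.4% of all genes, as were 5 Hippo core and 3 other YAP/TAZ-responsive genes. Lower at that limit were 1 member, 3 Hippo core genes, 4 other YAP/TAZ-responsive genes and 2 receptors, against 8.96% of all genes. With a 3-fold limit, 1 Hippo core gene was lower, against 1.31% of all genes. With the mean of all probes, 0 Hippo core genes were 2-fold lower, and with loess 3 were. For receptors, 1 gene was 2-fold lower with scaling to the median, quantiles, loess, normexp and the authors' deposited values (Itgb5), with the mean of all probes (Itgb1, -1.27) and with the most 3-prime probe (Notch1, -1.10). All genes at least 2-fold higher and lower numbered 891 and 584, but 653 and 723 with median scaling, 665 and 712 with quantiles, 606 and 759 with loess, 304 and 425 with normexp and 479 and 617 in the authors' deposited table. No paired analysis was possible because each group has 1 array.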
